A study of Mus musculus with 6 samples.

Results

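Wnt ligands, Frizzled receptors, the secreted proteins that modulate them, the Lgr receptors and the Axin scaffolds were examined in cultured mouse satellite cells (SCs). SCs are the stem cells of skeletal muscle, and they came from mice with a conditional deletion of NF-YA (NF-YA cKO) and from NF-YA fl/fl controls. The genes were chosen by name, as every Wnt, Fzd, Sfrp, Rspo, Dkk, Lgr4 to Lgr6, Axin1 and Axin2 entry of the deposited tables. Of 46 such entries, 34 had more than 10 expected counts in at least 2 libraries, and these 34 were among 17348 genes tested out of 35976. NF-YA cKO mice carried floxed NF-YA alleles and the tamoxifen-dependent Pax7-CreERT2 recombinase, which acts in Pax7-expressing cells, and NF-YA fl/fl mice carried the floxed alleles without Cre. Both genotypes received tamoxifen, dissolved at 20 mg/ml, at an age that the labels give as 5 to 7 weeks and the methods slightly later. SCs were enriched from hindlimb muscle by magnetic depletion of cells with endothelial, blood and Sca1 surface markers, plated in equal numbers and collected for RNA-seq in growth medium. There were 3 libraries per genotype, with 31040863 to 41118984 expected counts in NF-YA cKO and 26936230 to 33316730 in NF-YA fl/fl.

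Wnt proteins are secreted lipid-modified ligands that bind Frizzled receptors. In the canonical branch, Frizzled and the Lrp5 and Lrp6 co-receptors inactivate a destruction complex built on Axin1 and Axin2, so that beta-catenin accumulates and acts with TCF/LEF factors, while other branches act on cell polarity and calcium. Sfrp proteins bind Wnts, some Dkk proteins act on the co-receptors, and R-spondins signal through Lgr4, Lgr5 and Lgr6 to keep Frizzled receptors at the surface. In muscle, Wnt signals are known to act on the renewal, activation and differentiation of SCs.

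The targeted gene and the cell type markers were read first. The entry that the authors added for the deleted Nfya allele held 27.3%, 32.0% and 40.5% of Nfya TPM in NF-YA cKO libraries 1 to 3 and 0% in all 3 NF-YA fl/fl libraries, while total Nfya was 27.0 to 28.5 CPM (counts scaled to library size) in NF-YA cKO and 23.4 to 36.9 CPM in the NF-YA fl/fl libraries. Of 17 satellite cell and myoblast markers, 14 passed the count filter, 3 were called lower (Cdh15, Des and Heyl) and none higher, their summed level was 2005 to 2238 CPM in the NF-YA cKO libraries and 2875 to 4798 CPM in the NF-YA fl/fl libraries, and Calcr and Chodl were at 0 in 1 library each. Des, which was also in the pericyte list, had 9263 to 15900 counts in NF-YA cKO and 39974 to 42130 in NF-YA fl/fl. The log2 fold change was below 0 in 9 of the 14 and above 0 in 5. Pax7, among the 5, had 4562, 6833 and 8570 counts in NF-YA cKO and 1923, 2944 and 3098 in NF-YA fl/fl. All 19 markers of differentiated muscle were called lower in NF-YA cKO, with sums of 716 to 1586 CPM against 50214 to 61606 CPM. Of 16 macrophage markers, 15 passed the filter and 14 were called higher, 6 of which passed only through the NF-YA cKO libraries, with sums of 160.5 to 315 CPM against 8.31 to 19.4 CPM, and C1qb, Ptprc and Fcer1g were at 0 in 1 library each. The genotypes also differed in Xist, at 836 to 852 CPM in the NF-YA cKO libraries and at most 0.475 CPM in the NF-YA fl/fl libraries, and in the Y-linked Ddx3y, at most 0.0957 CPM against 80.9 to 88.6 CPM, although the methods describe male mice. This difference in sex-linked expression ran with genotype in every library, so that sex and genotype cannot be told apart for any gene. None of the 34 genes lies on chromosome X or Y, which does not remove this limit. In bulk RNA, fewer cells of a type and less RNA per cell cannot be told apart.

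NF-YA fl/fl replicate 3 stood apart for the Wnt genes. It held less than 50% of the level of both other NF-YA fl/fl libraries in 14 of 34 members (41.2%), against 8.56% of all genes tested. The summed level of 19 fibroblast and fibro-adipogenic progenitor markers was 1421 CPM in this library, 3655 and 4190 CPM in the NF-YA fl/fl replicates 1 and 2, and 2574 to 3036 CPM in the NF-YA cKO libraries. Of these markers 18 passed the filter, Lum was called higher in NF-YA cKO and none lower, and Clec3b was at 0 in 2 libraries. Among the NF-YA fl/fl libraries, replicate 3 also had the lowest sums of endothelial (20.6 CPM), macrophage (8.31 CPM) and pericyte and smooth muscle markers (3534 CPM). It had the highest sums of satellite cell (4798 CPM) and glia markers (2188 CPM). Its sums of differentiated muscle and tenocyte markers lay between those of replicates 1 and 2. The part of any of these cell types in the values of the Wnt genes was not tested. The log2 fold changes of these 14 members are given with and without NF-YA fl/fl replicate 3, other than that of Rspo2.

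Of the 34 genes, 6 changed between the genotypes. Wnt7b and Rspo1 rose in NF-YA cKO, and Wnt9a, Fzd2, Fzd5 and Fzd9 fell. Calls required an FDR under 0.01 in edgeR's quasi-likelihood test, adjusted over all genes, together with a log2 fold change (NF-YA cKO over NF-YA fl/fl) above 1 or below -1. The 2 genes called higher stand against 4.65% of all genes tested, and the 4 called lower against 7.67%. In either direction 17.6% of the 34 were called, and 12.3% of all genes tested. The median of the log2 fold changes was -0.46 among the 34 genes and -0.02 among all genes. Below 0 were 22 of the 34, and 8850 of all 17348 genes tested. The 22 include Rspo2, which could pass the count filter only through NF-YA fl/fl. The genotypes did not overlap in 15 members, against 55.3% of all genes tested. All NF-YA cKO libraries were above all NF-YA fl/fl libraries in 7 of these, against 29.1% of all genes, and below in 8, against 26.2%. The libraries of NF-YA cKO were closer to each other than those of NF-YA fl/fl, with a median coefficient of variation of 13.3% against 43.3% over the 34 genes, and of 7.97% against 20.7% over all genes tested. Without NF-YA fl/fl replicate 3, 3 genes were called higher and 6 lower, and 2 and 3 of these were called with all libraries. The 6 include Rspo2, which passed the count filter only through NF-YA fl/fl, where it was high. Over all genes, 2538 of 17170 were called in either direction without NF-YA fl/fl replicate 3, and 2137 of 17348 with all libraries.

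**Figure D1:**
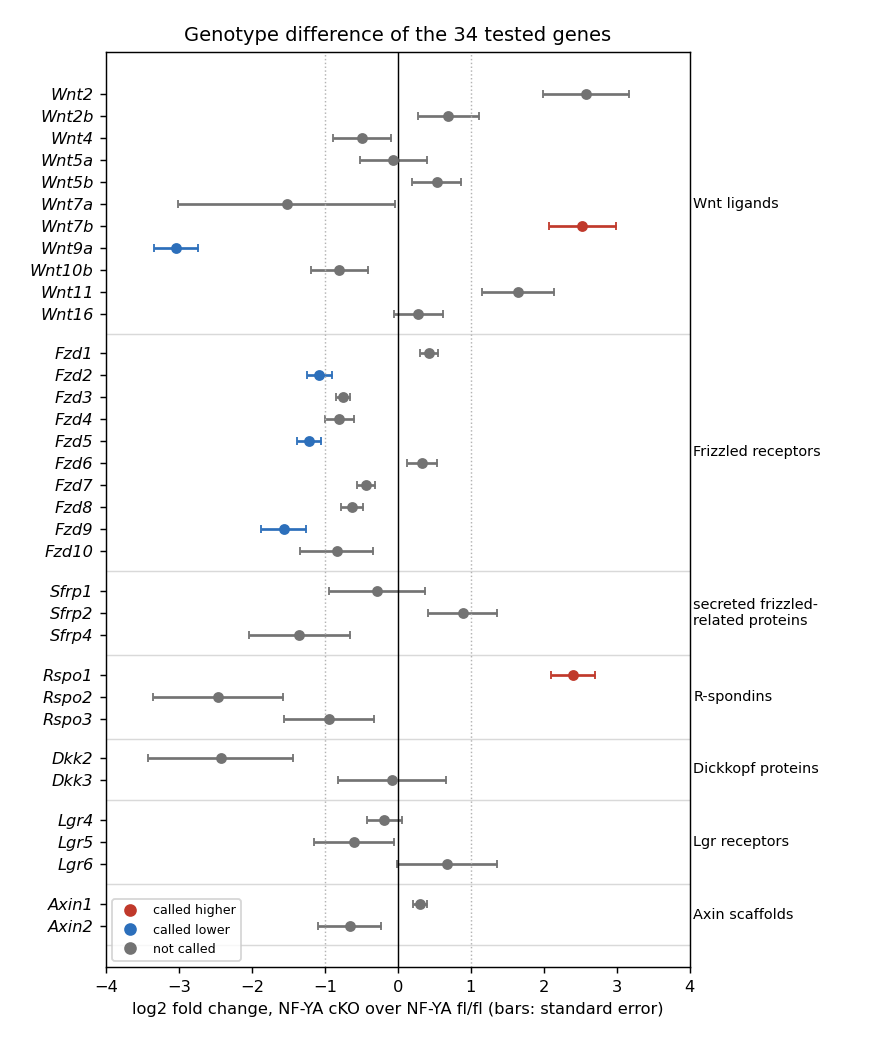
Log2 fold change (NF-YA cKO over NF-YA fl/fl) of the 34 genes by family, with bars for the standard error, red for genes called higher, blue for genes called lower and dotted lines at the thresholds of the fold (-1 and 1). Wnt9a lies lowest among the called genes at -3.04, Wnt7b and Rspo1 lie at 2.53 and 2.40, and 8 of the 10 Frizzled receptors lie below 0.

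Because NF-Y binds the CCAAT box, the promoter windows of the members were read for CCAAT and its reverse complement ATTGG, which together cover both strands. The 2 words can overlap by the letters AT, and a window with any match was counted once. Windows of 300 bases, from 250 before to 50 after an annotated start, were available from RefSeq (GRCm38.p6) for 21 of the 34 genes. Of these 21 genes, 9 held a match in at least 1 window (42.9%), and 42.3% of the 12466 tested genes with a window did. By window the share was 37.5% of the 24 windows of members and 37.4% of all 32851 windows. Among called genes with a window, Fzd5 was the only member of 3 called lower to hold a match (the others being Wnt9a and Fzd9), and Rspo1, the only member called higher that had a window, held none. The other members with a match were Axin2, Dkk2, Fzd4, Fzd7, Lgr4, Wnt16, Wnt2 and Wnt2b, none of which was called by edgeR. Fzd5 is printed below as the called member with a match, Wnt9a as the member with the largest called change and Wnt2 as the ligand with the largest difference that edgeR did not call. The last 2 were chosen after their values were seen. Each sequence is in the direction of the gene, capitals mark a match, and each window surrounds 1 annotated start, which for Wnt9a and Wnt2 is not the outermost end of the gene. The Fzd5 window is chr1:64737701-64738000 on the minus strand, with ATTGG at position -204 from the start. The Wnt9a window is chr11:59306680-59306979 on the plus strand and has no match. The Wnt2 window is chr6:18030396-18030695 on the minus strand, with ATTGG at -74.
Fzd5: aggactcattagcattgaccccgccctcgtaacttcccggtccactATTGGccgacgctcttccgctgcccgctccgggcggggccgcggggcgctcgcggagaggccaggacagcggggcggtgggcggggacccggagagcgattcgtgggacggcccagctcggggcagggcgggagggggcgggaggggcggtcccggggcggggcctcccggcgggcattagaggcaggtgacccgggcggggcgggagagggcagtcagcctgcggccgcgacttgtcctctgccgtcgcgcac
Wnt9a: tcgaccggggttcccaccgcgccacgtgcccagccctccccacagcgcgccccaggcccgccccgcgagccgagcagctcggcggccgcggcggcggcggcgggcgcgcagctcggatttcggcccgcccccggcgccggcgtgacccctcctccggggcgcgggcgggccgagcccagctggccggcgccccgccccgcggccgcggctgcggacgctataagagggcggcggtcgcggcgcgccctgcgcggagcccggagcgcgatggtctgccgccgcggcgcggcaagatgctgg
Wnt2: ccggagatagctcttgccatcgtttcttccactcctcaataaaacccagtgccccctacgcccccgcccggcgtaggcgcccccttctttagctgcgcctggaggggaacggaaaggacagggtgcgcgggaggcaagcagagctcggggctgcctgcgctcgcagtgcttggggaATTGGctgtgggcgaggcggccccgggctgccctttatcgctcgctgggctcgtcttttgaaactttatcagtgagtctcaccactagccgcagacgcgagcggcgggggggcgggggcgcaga
A match is a description of the letters in the window and not a site of binding.

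Among the 11 Wnt ligands that passed the filter, Wnt9a fell and Wnt7b rose. Wnt9a (chr11:59306849-59333552, GRCm38) encodes a ligand of the canonical branch. It was at 3.48, 3.14 and 4.72 CPM in NF-YA cKO libraries 1 to 3 and at 32.1, 20.5 and 41.2 CPM in libraries 1 to 3 of NF-YA fl/fl. All 3 NF-YA cKO libraries lay below all 3 NF-YA fl/fl libraries, by a wide margin. The means were 3.78 ± 0.836 CPM and 31.2 ± 10.4 CPM (SD, n = 3), which is 8.24-fold lower in NF-YA cKO (log2 fold change -3.04, SE 0.30, FDR 0.000741 by edgeR). Wnt9a was called whichever library was left out, with log2 fold changes from -3.28 to -2.80. Its neighbour Wnt3a, at chr11:59248036-59290751, had 0 counts in all 6 libraries, where 3 counts are 0.0705 to 0.115 CPM.

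Wnt7b (chr15:85535437-85581821), a ligand known in the canonical branch, showed the opposite direction. It was at 11.3, 11.8 and 10.04 CPM in the NF-YA cKO libraries and at 2.91, 2.17 and 0.679 CPM in the NF-YA fl/fl libraries. The genotypes did not overlap, and NF-YA fl/fl replicate 3 was the lowest library. With means of 11.1 ± 0.922 and 1.92 ± 1.13 CPM, Wnt7b was 5.77-fold higher in NF-YA cKO (log2 fold change 2.53, SE 0.46, FDR 0.00605). Without NF-YA fl/fl replicate 3 the log2 fold change was 2.13 with an FDR of 0.000356. The call was lost, at log2 fold changes of 2.44 to 2.93, when NF-YA cKO replicate 1, 2 or 3 (FDR 0.0249, 0.0310 and 0.0230) or NF-YA fl/fl replicate 1 or 2 (FDR 0.0124 and 0.0160) was left out.

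Wnt2 had a difference as large that was not called by edgeR. This ligand (chr6:17985474-18032772) was at 14.6, 9.92 and 15.0 CPM in the NF-YA cKO libraries and at 2.22, 3.81 and 0.543 CPM in the NF-YA fl/fl libraries. All 3 NF-YA cKO libraries were higher than all 3 NF-YA fl/fl libraries, and again NF-YA fl/fl replicate 3 was lowest. The log2 fold change was 2.58 (SE 0.59, 95% interval 1.18 to 3.98) with an FDR of 0.0142. Without NF-YA fl/fl replicate 3 it was 2.11 (FDR 0.00176), and without NF-YA fl/fl replicate 2 it was 3.26 (FDR 0.00883), and in both cases Wnt2 was called. It was also called by DESeq2 (2.56, adjusted p 3.45e-05) and by edgeR with no filter on counts (2.60, FDR 0.00561). Wnt2 was called in 5 of the 16 alternatives, with FDRs up to 0.0951 over all of them. It was not called without NF-YA cKO replicate 1, 2 or 3 or NF-YA fl/fl replicate 1. Nor was it called with filterByExpr, either limma fit, glmTreat or the replicate block.

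Wnt5a, a ligand best known in the branches that do not use beta-catenin, was the most abundant ligand per length over all libraries. It was at 34.3, 27.5 and 28.4 CPM in the NF-YA cKO libraries and at 43.8, 39.6 and 10.8 CPM in the NF-YA fl/fl libraries. The NF-YA cKO libraries lay between the high and the low libraries of NF-YA fl/fl. The log2 fold change was -0.06 (SE 0.46, 95% interval -1.15 to 1.03, FDR 0.929), and -0.47 (FDR 0.0160) without NF-YA fl/fl replicate 3. Leaving out NF-YA fl/fl replicate 1 or 2 instead turned it to 0.25 or 0.13.

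The other 7 ligands tested had means below 10 CPM in both genotypes, and none was called by edgeR. Wnt11 alone had an unadjusted p under 0.05 and was called by DESeq2. Wnt11, a ligand known in polarity signalling, was at 5.63 ± 0.594 CPM in the NF-YA cKO libraries and 1.81 ± 1.29 CPM in the NF-YA fl/fl libraries without overlap (log2 fold change 1.64, FDR 0.0369, and 1.25, FDR 0.0164, without NF-YA fl/fl replicate 3). Wnt5b also did not overlap, with a log2 fold change of 0.53 (FDR 0.254), and of 0.22 (FDR 0.396) without NF-YA fl/fl replicate 3. Wnt2b, Wnt4, Wnt10b, Wnt16 and Wnt7a overlapped, with log2 fold changes of 0.69, -0.49, -0.80, 0.28 and -1.52 and FDRs from 0.148 to 0.528. Without NF-YA fl/fl replicate 3 the value was -0.09 for Wnt4 (FDR 0.835) and -2.13 for Wnt7a (FDR 0.188). Wnt7a was near the detection limit, between 0 and 0.383 CPM in the NF-YA cKO libraries and between 0 and 1.03 CPM in the NF-YA fl/fl libraries. Another 8 ligands did not pass the filter. Wnt3a and Wnt9b had no count in any library, and Wnt1, Wnt3, Wnt6, Wnt8a, Wnt8b and Wnt10a had at most 8.

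The total of ligand transcripts was close in the genotypes, but its composition differed. Summed over the 19 ligands, the deposited TPM (transcript levels scaled to length and library) were 26.6 ± 6.09 in NF-YA cKO and 27.9 ± 6.76 in NF-YA fl/fl (SD, n = 3). Wnt9a made up 3.87%, 4.76% and 5.97% of this sum in the NF-YA cKO libraries and 35.7%, 27.9% and 60.4% in the NF-YA fl/fl libraries. It was the largest share of the ligand TPM in NF-YA fl/fl by the mean, 41.3% ± 16.98, and small in every NF-YA cKO library. Wnt2 made up 24.3% ± 3.31 in NF-YA cKO and 3.96% ± 3.11 in NF-YA fl/fl, Wnt7b 13.7% ± 2.89 and 2.31% ± 1.15, and Wnt11 10.6% ± 0.709 and 3.19% ± 2.11. Wnt5a held 27.4% ± 1.76 in NF-YA cKO and 28.5% ± 14.5 in NF-YA fl/fl, where it ranged from 11.97% in replicate 3 to 39.0% in replicate 2. These shares are within a library, so that a change in 1 ligand moves the share of the others, and they were not tested.

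**Figure D2:**
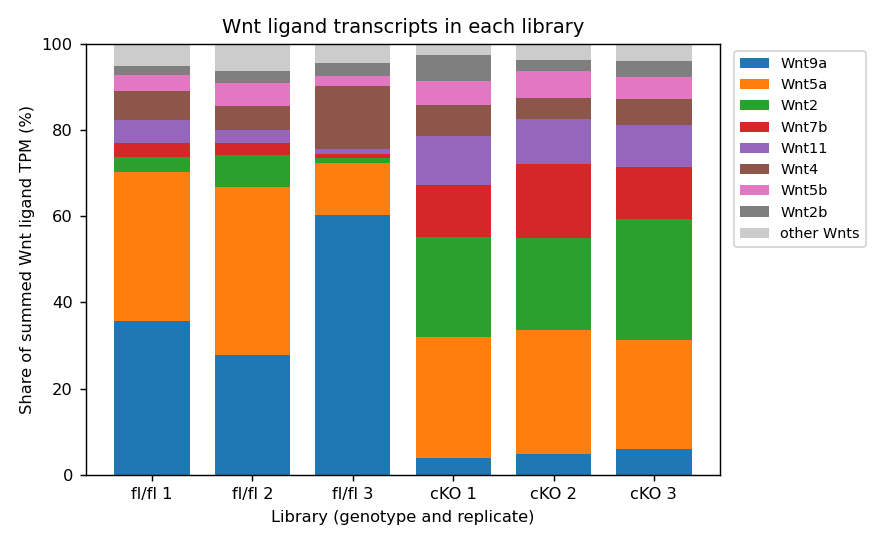
Share of each ligand in the summed Wnt ligand TPM (percent, vertical axis) in each of the 6 libraries. Wnt9a takes 27.9% to 60.4% in NF-YA fl/fl and 3.87% to 5.97% in NF-YA cKO, and Wnt2, Wnt7b and Wnt11 take larger shares in every NF-YA cKO library.

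All 10 Frizzled receptors were detected, and Fzd2, Fzd5 and Fzd9 fell in NF-YA cKO (30.0% of the 10, against 7.67% of all genes tested) while none was called higher by edgeR or DESeq2, with 1 higher at an unadjusted p under 0.05. The median log2 fold change of the 10 was -0.78, 8 were below 0 under each of the 16 alternatives as well, and in 7 all NF-YA cKO libraries were lower than all NF-YA fl/fl libraries, as in 26.2% of all genes. The summed TPM of the family was 52.2 ± 6.54 in NF-YA cKO and 77.5 ± 10.5 in NF-YA fl/fl. Per length Fzd2, Fzd1 and Fzd7 were the highest 3 over all libraries, at 15.7, 13.6 and 10.2 TPM.

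Fzd2 (chr11:102604431-102608058) was the most abundant receptor per length in NF-YA fl/fl. It was at 32.2, 29.4 and 33.6 CPM in the NF-YA cKO libraries and at 76.8, 50.2 and 74.1 CPM in the NF-YA fl/fl libraries. The NF-YA cKO libraries were close to each other and all lower. Fzd2 was 2.11-fold lower in NF-YA cKO (log2 fold change -1.08, SE 0.17, FDR 0.00390), just past the fold threshold, and its call was lost without NF-YA cKO replicate 1, 2 or 3 (FDR 0.0177, 0.0226 and 0.0160) or NF-YA fl/fl replicate 1 (log2 fold change -0.98, FDR 0.0164). Fzd5 (chr1:64730558-64737750), the receptor whose promoter window with a match is shown above, was at 10.5, 11.8 and 13.6 CPM in the NF-YA cKO libraries and at 23.3, 31.6 and 28.6 CPM in the NF-YA fl/fl libraries. No library of 1 genotype reached the other. It was 2.33-fold lower in NF-YA cKO (log2 fold change -1.22, SE 0.16, FDR 0.00197), and the call was lost without NF-YA cKO replicate 1 or 2 (FDR 0.0112 and 0.0147). Fzd9 (chr5:135248938-135251047) was scarce, at 1.18, 1.496 and 1.13 CPM in the NF-YA cKO libraries and at 4.36, 2.35 and 4.61 CPM in the NF-YA fl/fl libraries. NF-YA fl/fl replicate 2 lay nearest to NF-YA cKO. Fzd9 was 2.96-fold lower (log2 fold change -1.57, SE 0.31, FDR 0.00863), close to the threshold, and was not called when any library other than NF-YA fl/fl replicate 2 was left out (FDR 0.0111 to 0.0388).

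Smaller differences in the same direction were seen in other receptors. Fzd3, a receptor known in planar cell polarity, was at 37.8, 42.1 and 42.1 CPM in the NF-YA cKO libraries and at 67.9, 63.2 and 74.2 CPM in the NF-YA fl/fl libraries. The libraries of each genotype were tightly grouped, and the log2 fold change of -0.75 (SE 0.10, FDR 0.00208) passed the FDR threshold but not that of the fold. Fzd4 was at 19.7, 17.01 and 18.0 CPM against 28.8, 25.1 and 41.6 CPM (log2 fold change -0.80, FDR 0.0183). Fzd7, known as a receptor of satellite cells, was at 37.8, 34.2 and 35.9 CPM against 52.6, 52.2 and 41.3 CPM (log2 fold change -0.44, 95% interval -0.72 to -0.15, FDR 0.0291). Neither overlapped between the genotypes, and neither was called. Fzd8 did not overlap either (log2 fold change -0.63, FDR 0.0156), and Fzd10 did, at -0.84 with an FDR of 0.227.

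Fzd1 and Fzd6 lay above 0. Fzd1 (chr5:4753839-4758216) was at 59.9, 57.3 and 61.2 CPM in the NF-YA cKO libraries and at 42.7, 51.0 and 38.6 CPM in the NF-YA fl/fl libraries. It was the only receptor of the family that was higher in all NF-YA cKO libraries than in any NF-YA fl/fl library, at a log2 fold change of 0.43 (95% interval 0.15 to 0.72, FDR 0.0289) that was not called. As a share of the Frizzled TPM, Fzd1 was 28.9% ± 0.436 in NF-YA cKO and 15.4% ± 3.20 in NF-YA fl/fl, and Fzd2 was 18.7% ± 0.481 and 28.0% ± 4.599. Fzd1 was thus the first receptor by share in NF-YA cKO and Fzd2 in NF-YA fl/fl. Fzd6 was at 17.5, 13.3 and 17.7 CPM against 10.7, 16.2 and 11.6 CPM and overlapped (log2 fold change 0.33, FDR 0.237).

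**Figure D3:**
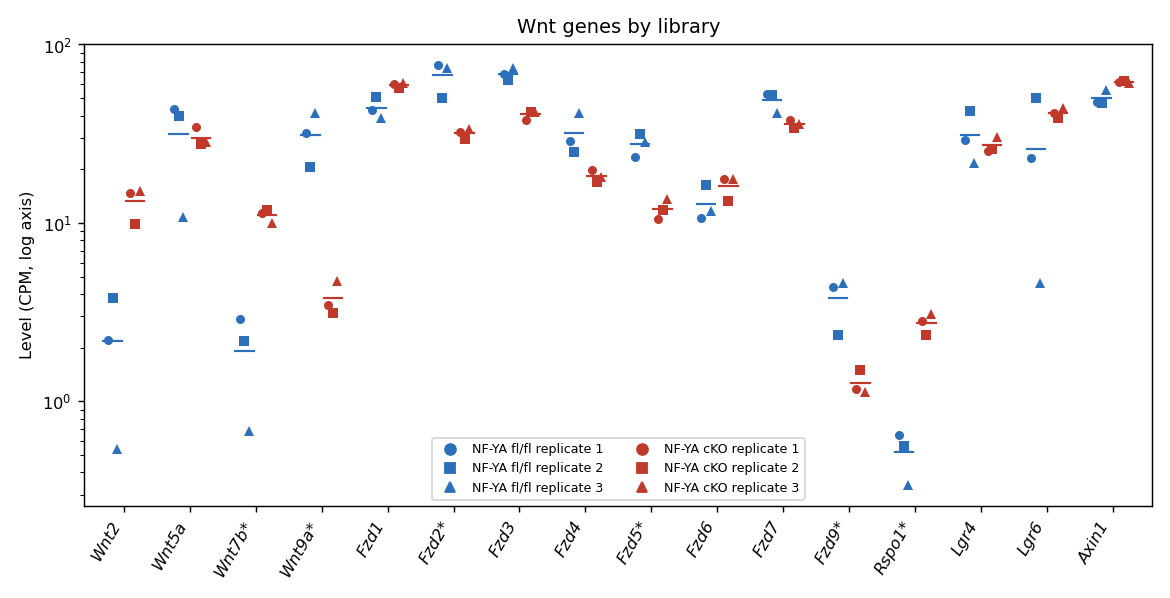
Level (CPM, log axis) of the 16 members that were called or had a mean of at least 10 CPM in either genotype, with a point for each library and a bar for the mean of each genotype, and asterisks at called genes. Wnt9a, Fzd2, Fzd5 and Fzd9 lie lower in all 3 NF-YA cKO libraries, Wnt2, Wnt7b and Rspo1 lie higher, and Wnt5a and Lgr6 are spread widely in NF-YA fl/fl.

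Of the R-spondins, which strengthen Wnt signals through Lgr receptors, Rspo1 rose. Rspo1 (chr4:124986401-125009102) was at 2.84, 2.34 and 3.08 CPM in the NF-YA cKO libraries and at 0.650, 0.565 and 0.339 CPM in the NF-YA fl/fl libraries, from 89, 97 and 131 counts and 17, 19 and 10 counts. All NF-YA cKO libraries were higher, and NF-YA fl/fl replicate 3 was the lowest. It was 5.29-fold higher in NF-YA cKO (log2 fold change 2.40, SE 0.30, FDR 0.00165), with 2.17 and an FDR of 0.00110 without NF-YA fl/fl replicate 3, and it missed the threshold without NF-YA cKO replicate 1, 2 or 3 (FDR 0.0105, 0.0104 and 0.0111). Rspo3 was at 3.21 ± 1.73 CPM in the NF-YA cKO libraries and 6.16 ± 4.195 CPM in the NF-YA fl/fl libraries and overlapped (log2 fold change -0.94, FDR 0.265, and -1.35, FDR 0.0591, without NF-YA fl/fl replicate 3). Rspo2 passed the filter only through 16 and 22 counts in NF-YA fl/fl replicates 1 and 2. It lay at or below 0.141 CPM in the NF-YA cKO libraries and in NF-YA fl/fl replicate 3, and no test is given for it because it could pass only where it was high. Rspo4 did not pass, with at most 4 counts. Summed over the family, R-spondin TPM were 3.42 ± 1.26 in NF-YA cKO and 3.80 ± 2.41 in NF-YA fl/fl.

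None of the 3 Lgr receptors was called by edgeR or DESeq2 or had an unadjusted p under 0.05. Lgr4 was at 25.3, 26.1 and 30.5 CPM in the NF-YA cKO libraries and at 29.1, 42.3 and 21.8 CPM in the NF-YA fl/fl libraries, a log2 fold change of -0.19 (95% interval -0.75 to 0.38, FDR 0.565). It turned to 0.10 without NF-YA fl/fl replicate 2. Lgr6 was at 41.3, 38.9 and 44.0 CPM in the NF-YA cKO libraries and at 23.2, 50.2 and 4.61 CPM in the NF-YA fl/fl libraries. The NF-YA cKO libraries were alike, while the NF-YA fl/fl libraries spanned a range on both sides of them, and the log2 fold change of 0.67 (95% interval -0.95 to 2.29, FDR 0.470) was 0.17 without NF-YA fl/fl replicate 3. Lgr5, a marker of stem cells in several epithelia, was low in both genotypes, at 0.4503 ± 0.0865 and 0.691 ± 0.422 CPM (log2 fold change -0.60, FDR 0.416, and -1.04, FDR 0.0286, without NF-YA fl/fl replicate 3).

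The genes of the secreted Sfrp and Dkk proteins varied most within NF-YA fl/fl. None of the 5 tested was called by edgeR or DESeq2, and 1, Dkk2, had an unadjusted p under 0.05. Dkk2 ranged from 1.29 to 1.76 CPM in the NF-YA cKO libraries and from 0.407 to 15.4 CPM in the NF-YA fl/fl libraries. Its log2 fold change was -2.43 (SE 0.99, FDR 0.0938), and -3.00 (FDR 0.000347) without NF-YA fl/fl replicate 3, which held 3.31% of the mean of the other NF-YA fl/fl libraries. Dkk3 ranged from 5.98 to 7.33 CPM in the NF-YA cKO libraries and from 1.05 to 14.5 CPM in the NF-YA fl/fl libraries, with a log2 fold change of -0.08 (95% interval -1.84 to 1.67, FDR 0.940), which turned to 0.93 without NF-YA fl/fl replicate 2 and was -0.60 without NF-YA fl/fl replicate 3. Sfrp1 was at 6.31, 6.71 and 10.3 CPM in the NF-YA cKO libraries and at 10.8, 15.9 and 1.80 CPM in the NF-YA fl/fl libraries (log2 fold change -0.29, FDR 0.757), which was 0.31 without NF-YA fl/fl replicate 2 and -0.78 without NF-YA fl/fl replicate 3. NF-YA fl/fl replicate 3 was again far below the other libraries. Sfrp2 (log2 fold change 0.89, FDR 0.181) and Sfrp4 (-1.35, FDR 0.164) were near 1 CPM, and Sfrp4 was called lower only without NF-YA fl/fl replicate 3 (-1.86, FDR 0.00206). Dkk1, Dkk4 and Sfrp5 did not pass the filter, with at most 4 counts.

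**Figure D4:**
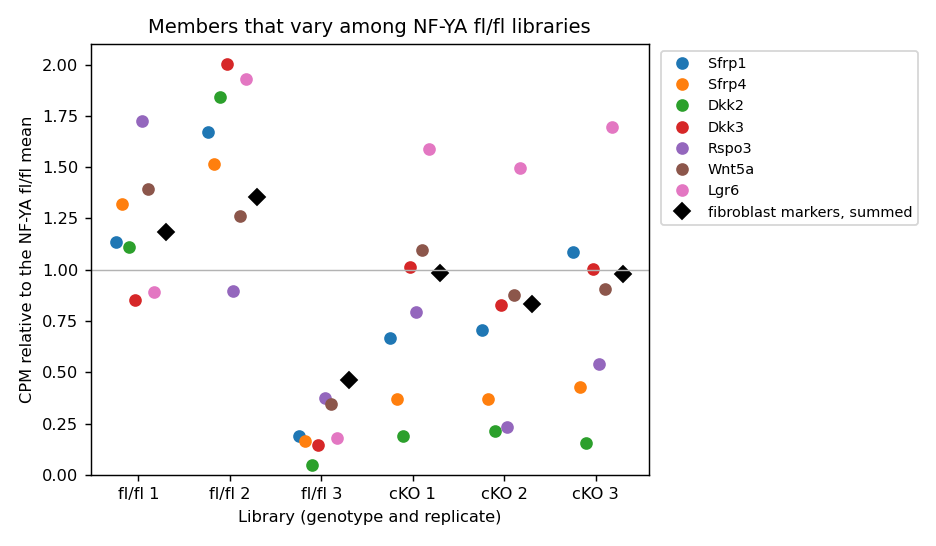
Level of 7 of the 14 members below 50% of both other NF-YA fl/fl libraries in replicate 3, and the summed fibroblast markers, each divided by its mean in NF-YA fl/fl (vertical axis), in each library. By this choice NF-YA fl/fl replicate 3 is the lowest NF-YA fl/fl library for all 7, and it is also the lowest for the markers. Of the marker sums not shown, it is lowest for endothelium, macrophages and pericytes and highest for satellite cells and glia. Members not shown could go the other way, as did Wnt4 and Wnt9a, at 197% and 157% of the mean of the other NF-YA fl/fl libraries.

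Axin1, the constitutive scaffold of the destruction complex, was the most abundant member per length over all libraries at 18.6 TPM, with means of 20.2 TPM in NF-YA cKO and 16.9 TPM in NF-YA fl/fl, where Fzd2 was higher at 21.5 TPM. It was at 62.0, 62.3 and 61.2 CPM in the NF-YA cKO libraries and at 47.7, 46.9 and 55.6 CPM in the NF-YA fl/fl libraries. The genotypes did not overlap, and the log2 fold change of 0.30 (SE 0.10, FDR 0.0451) was below the threshold of the fold. Axin2, a widely used target gene of beta-catenin, was low, at 1.47, 0.917 and 1.60 CPM in the NF-YA cKO libraries and 2.26, 1.04 and 3.02 CPM in the NF-YA fl/fl libraries. Its genotypes overlapped, with a log2 fold change of -0.66 (95% interval -1.67 to 0.35, FDR 0.258), and of -0.30 (FDR 0.565) without NF-YA fl/fl replicate 3.

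For 9 of the 16 genes with values by library, the tables held 2 or more transcripts. The share of the main transcript in the gene's TPM overlapped between the genotypes in 8 of them, Wnt5a, Wnt2, Wnt7b, Fzd5, Fzd6, Rspo1, Lgr6 and Axin1. For Wnt9a it was 100% in all NF-YA cKO libraries and 95.4%, 96.5% and 96.1% in NF-YA fl/fl. Wnt9a had 109, 130 and 201 counts in NF-YA cKO and 839, 688 and 1213 in NF-YA fl/fl. A minor transcript of a few percent could thus go undetected in NF-YA cKO, and this difference was not tested. RSEM estimates these shares from reads that transcripts hold in common, and they are least certain for genes with few counts such as Rspo1, whose main transcript was listed at 0% in NF-YA fl/fl replicate 3.

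Of 104 other genes of the pathway, 98 passed the filter, 1 was called higher (against 4.65% of all genes tested) and 9 lower (against 7.67%), with a median log2 fold change of -0.16. In Wnt secretion, Porcn, the acyltransferase that adds the lipid to Wnt proteins, fell in NF-YA cKO. It was at 4.08, 2.65 and 3.24 CPM against 22.0, 17.2 and 20.8 CPM (log2 fold change -2.59, SE 0.20, FDR 0.000347), a difference far beyond the spread of either genotype. Porcn lies on chromosome X, as does Gpc4, a surface proteoglycan that also fell (-1.34, FDR 0.000987). Musk, the receptor kinase of the neuromuscular junction, fell by 1.43 on the log2 scale (FDR 0.00155, and 0.0124 without NF-YA cKO replicate 2). Kremen2, which acts with Dkk proteins, had 2, 6 and 4 counts in the NF-YA cKO libraries and 56, 112 and 147 counts in the NF-YA fl/fl libraries, and the inhibitor Sost had 0, 6 and 1 counts and 54, 48 and 276 counts. Both passed the count filter only through NF-YA fl/fl, where they were high, and 7 of the 9 genes called lower passed it in both genotypes. In the polarity list, Daam2 (-2.36, FDR 0.000713), Celsr3 (-1.83, FDR 0.00474) and Prickle1 (-1.20, FDR 0.00888) fell.

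Few of the genes that carry the signal inside the cell were called. None of the 20 genes of the destruction complex and signal relay was called by edgeR, where 4 were higher and 8 lower at an unadjusted p under 0.05, while DESeq2 called 2 lower. Ctnnb1, which encodes beta-catenin, was at 803, 817 and 799 CPM in the NF-YA cKO libraries and at 576, 596 and 575 CPM in the NF-YA fl/fl libraries, a log2 fold change of 0.47 (SE 0.09, FDR 0.00671) that was below the threshold of the fold. The co-receptors Lrp5 (-0.24, FDR 0.275) and Lrp6 (-0.35, FDR 0.0186) and the factors Lef1 (0.47, FDR 0.245), Tcf7 (0.51, FDR 0.230), Tcf7l1 (-0.63, FDR 0.111) and Tcf7l2 (-0.32, FDR 0.287) were not called. Bcl9l, a partner of beta-catenin, fell (-1.30, FDR 0.00570). Among 20 tested genes of a list of common targets, Ccnd1, which encodes cyclin D1, rose from 261 ± 80.8 to 573 ± 67.1 CPM (log2 fold change 1.14, FDR 0.00937), and Porcn, which stood in this list too, fell. The calls of Porcn, Daam2 and Gpc4 were kept whichever library was left out. Those of Ccnd1 (FDR up to 0.0470), Bcl9l (0.0287), Celsr3 (0.0277) and Prickle1 (0.0362) were each lost without NF-YA cKO replicate 1, 2 or 3. That of Sost was lost there too, and no FDR is given for it because it passed the filter only where it was high. These calls were also lost without NF-YA fl/fl replicate 1 (Ccnd1, Celsr3, Prickle1, Sost), 2 (Bcl9l, Prickle1) or 3 (Ccnd1).

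**Figure D5:**
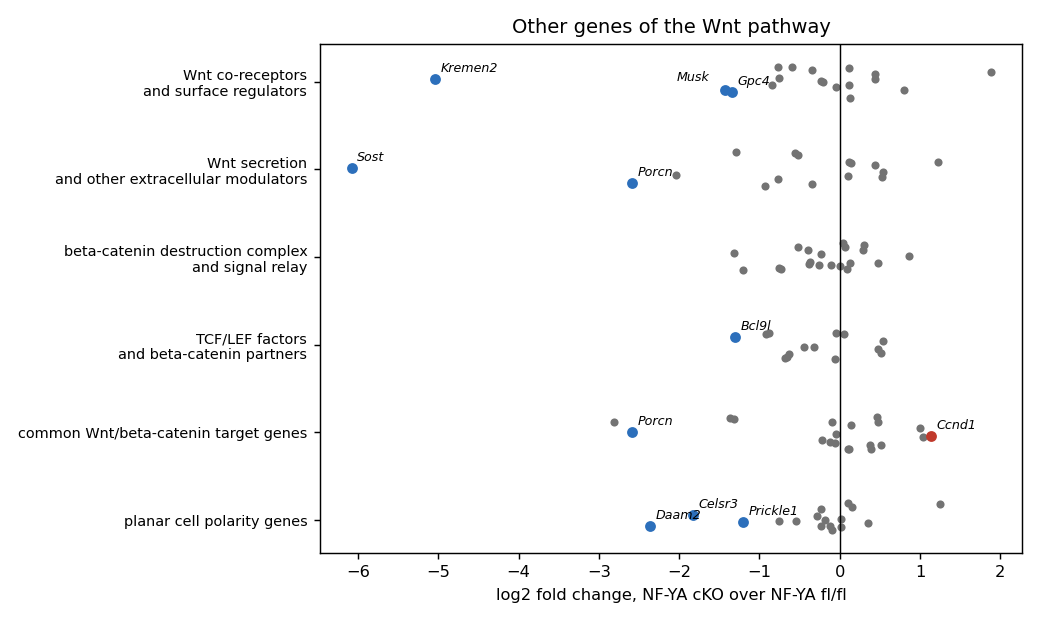
Log2 fold change (NF-YA cKO over NF-YA fl/fl, horizontal axis) of the 98 other pathway genes tested, with a point for each gene in rows for the gene lists, spread vertically for legibility, and with the 10 called genes named (red higher, blue lower). Ccnd1 is the only gene called higher, Sost and Kremen2 lie lowest, and Porcn appears in 2 lists.

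Marker sums of glia, pericytes and tenocytes did not overlap between the genotypes, and those of endothelium did. Schwann and glia markers summed to 524 to 619 CPM in the NF-YA cKO libraries and 992 to 2188 CPM in the NF-YA fl/fl libraries, of which Ncam1 alone held 412 to 491 CPM and 915 to 2079 CPM. Ncam1 was called lower, whereas 5 of the 11 tested were called higher, with a median log2 fold change of 1.22 over the list. Those of pericytes and smooth muscle were 1647 to 1935 CPM and 3534 to 4329 CPM, those of tenocytes 1113 to 1261 CPM and 546 to 717 CPM, and those of endothelium 35.4 to 36.6 CPM and 20.6 to 50.2 CPM. Tnc held most of the tenocyte sum, with 37838 to 47807 counts in the NF-YA cKO libraries and 15634 to 17182 in NF-YA fl/fl. Of 6 tenocyte markers tested, 2 were called higher, and Scx was called lower. Acta2 and Des held most of the pericyte and smooth muscle sum. Of 11 of these markers tested, Abcc9, Acta2 and Des were called lower and none higher, and Des was also in the satellite cell list. Wnt9a, Fzd2, Fzd5, Fzd9 and Porcn were lower in NF-YA cKO, as were the marker sums of differentiated muscle, satellite cells, pericytes and glia. Wnt7b and Rspo1 were higher, as were the marker sums of macrophages and tenocytes. Direction alone does not single out a cell type. The part of these cells in the values of the Wnt genes was not tested.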

How the data were processed

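The 6 RNA-seq libraries of SCs were grouped by the genotype and replicate number in their labels. The authors prepared stranded total RNA libraries, aligned the reads with bowtie2 to mouse transcripts of mm10, and used RSEM for quantification. Per gene and transcript they deposited expected counts, which are not normalized and need not be whole where reads are shared between transcripts or related genes, and TPM, and for transcripts the percent of the gene's TPM. The members and gene lists were chosen with earlier results of these data known.

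Expected counts were rounded, and every gene that exceeded 10 counts in 2 or more libraries was fitted with edgeR 4.0.16 in R 4.3.3 (TMM normalization, quasi-likelihood test, no factor besides genotype). P-values were adjusted over all 17348 genes (FDR). Calls needed an FDR under 0.01 and a change of more than 1 on the log2 scale, limits taken from the study's methods. CPM are after TMM normalization. P-values measure the spread between these libraries, which the methods do not tie to single mice. Values per library are given for members that were called or had a mean of at least 10 CPM in a genotype, and other members are named with summary values. Other pathway genes are named where called, with Ctnnb1, Lrp5, Lrp6, Lef1, Tcf7, Tcf7l1 and Tcf7l2 in any case. Coordinates are on GRCm38, and promoter windows are from RefSeq. The fit was tested on simulated counts.

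The results were recomputed with DESeq2 1.42.0, with DESeq2 size factors in edgeR, with filterByExpr or no filter, with limma 3.58.1 on log2(TPM + 1) and log2(TPM + 0.1), with unrounded counts, at an FDR under 0.05, with edgeR's glmTreat (threshold 1 on the log2 scale), with replicate number as a block, and without each library. Plots were drawn with matplotlib 3.10.9.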

Additional observations from a re-analysis of the deposited data

How the results depend on the processing

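With 3 libraries per genotype, the biological coefficient of variation was 0.310 within NF-YA fl/fl and 0.105 within NF-YA cKO, and members near 1 CPM rest on few counts. Over 16 alternatives, the log2 fold changes of single members kept direction and side of the threshold in 485 cases, were called in addition in 10, lost their call in 29 and reversed in 14, and those of the other named pathway genes kept both in 229 and lost their call in 43. Wnt9a was called in all 16, Rspo1 in 12, Fzd2 and Fzd5 in 11, Wnt7b in 9 and Fzd9 in 8. Members called higher were 2, and 4 with DESeq2 or an FDR under 0.05, 1 with limma on log2(TPM + 0.1), 0 with glmTreat, and 0 to 3 when each library was left out. Members called lower were 4, and 1 with glmTreat, 2 with limma on log2(TPM + 1), and 1 to 6 when each library was left out. Other pathway genes called higher were 1, and 2 with DESeq2, 3 with an FDR under 0.05 or no filter, 0 with DESeq2 size factors, filterByExpr, either limma fit or glmTreat, and 0 to 2 when each library was left out. Those called lower were 9, and 14 with an FDR under 0.05, 3 with glmTreat, 5 with limma on log2(TPM + 1), and 4 to 15 when each library was left out. Calls over all genes, in either direction, moved with the setting too. They were 2137 of 17348, and 2790 with DESeq2, 3188 with an FDR under 0.05 and 607 with glmTreat. With limma they were 1428 on log2(TPM + 0.1) and 935 on log2(TPM + 1), and 700 to 2538 when each library was left out. The cause of these differences was not tested.

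The labels do not say whether same-numbered libraries were paired. Their deviations from the genotype means had correlations of 0.17, -0.07 and 0.05, and those of differently numbered libraries -0.14 to 0.10. Such weak correlations over 3 libraries per genotype cannot settle whether the samples were paired. With the replicate block 2 members were called higher and 3 lower, and 1 and 6 other pathway genes. The calls lost were those of Fzd9 (FDR 0.0303), Bcl9l (0.0107), Prickle1 (0.0136) and Sost, for which no FDR is given. Reversed log2 fold changes were all of members that were not called. With the replicate block they were 0.15 for Wnt5a, 0.0144 for Sfrp1 and 0.46 for Dkk3. On log2(TPM + 0.1) they were 0.0448 for Wnt5a, -0.10 for Wnt16, 0.0264 for Sfrp1 and 0.40 for Dkk3, and on log2(TPM + 1) -0.0274 for Wnt16 and 0.0828 for Dkk3. Leaving out each library gave -0.47 to 0.25 for Wnt5a, -0.78 to 0.31 for Sfrp1, -0.60 to 0.93 for Dkk3 and -0.39 to 0.10 for Lgr4, the lowest without NF-YA fl/fl replicate 3.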
